A study of Mus musculus with 6 samples.

Results

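A set of 10 genes was followed here in CD4+ T cells of mice, all of them part of the NRF2 response, of haem breakdown or of the defence against superoxide: Nfe2l2, Keap1, Nqo1, Srxn1, Hmox1, Blvra, Blvrb, Sod1, Sod2 and Cat. They were chosen by gene symbol, with earlier results of these data known. Every probe set of the array that names exactly 1 of these genes was taken, which gave 10 probe sets for 10 genes, 1 per gene, out of 34760 probe sets naming 19937 single genes. The arrays came from CD4+ T cells of C57BL/6 mice, sampled at 6 weeks of age. WT mice (3 arrays) were compared with CBS-KO mice (3 arrays), which lack cystathionine beta-synthase, the enzyme that condenses homocysteine with serine and also produces hydrogen sulfide. The labels call the arrays of a group biological replicates and give both groups the same strain. They name no allele for the knockout, so which other cells of the body lacked the enzyme is unknown here.

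NRF2, the product of Nfe2l2, is a transcription factor that switches on antioxidant and detoxifying genes through antioxidant response elements. In unstressed cells KEAP1 holds it in the cytoplasm and delivers it for degradation, so its activity is set largely at the protein level, and NQO1, haem oxygenase 1 and sulfiredoxin are among its classic targets. Haem oxygenase 1 opens the haem ring to biliverdin, iron and carbon monoxide, and biliverdin reductases turn biliverdin into bilirubin. Superoxide dismutases convert superoxide into hydrogen peroxide, which catalase breaks down. Macrophages that clear old red cells depend on the haem branch, and red cells and their precursors carry large amounts of several of these antioxidant enzymes.

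Values are log2(intensity + 16), given in the order of replicates 1, 2 and 3, and every difference is CBS-KO minus WT. Tests were limited to probe sets with an average level over the 6 arrays past the 40th percentile, and all 10 members were among them. Nqo1 passed this filter only through its CBS-KO arrays, because all its WT values lay below the filter level of 6.99. A call means an adjusted p under 0.05 in limma, adjusted by Benjamini and Hochberg over the 20856 tested probe sets. Median intensity per array was 149 to 171. Across all probe sets, any WT array correlated with another WT array at a Pearson's r of 0.989 or more, CBS-KO arrays with each other at 0.970 or more, and arrays of opposite groups at 0.949 or more. The Cbs probe set itself did not separate the groups (0.06, SE 0.14, limma adjusted p = 0.801), and it is no check of the labels, because the labels do not state which exons it reads. Cd4 was among the brightest probe sets, at 13.23 to 13.42 in WT and 12.49 to 13.04 in CBS-KO arrays. CBS-KO 1 and 2 carried Y-linked signal and little Xist, whereas CBS-KO 3 and the 3 WT arrays carried Xist and no Y-linked signal, so genotype and sex were partly confounded. These were bulk cells, in which fewer cells of a type and less RNA per cell cannot be told apart.

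Hmox1, Blvrb and Nqo1 were called higher in the CBS-KO arrays, and no member was called lower. The increases were 6.69-fold for Blvrb, 4.95-fold for Nqo1 and 4.61-fold for Hmox1. These were bulk samples, in which markers of some other cell types were also higher, as given below. The other 7 members were not called. Over all features, 5.09% of tested probe sets were called higher and 4.47% lower, 9.57% in all, against 3 of 10 members higher and 0 of 10 lower. Leaving out WT 1 or WT 2 brought the count of 3 to 0, leaving out CBS-KO 1 to 1 and leaving out CBS-KO 2 to 5. Calls over the whole table moved as well: with 1 array left out they numbered 72 to 6433, against 1995 in the main fit. At an unadjusted p under 0.05 in limma, 5 members were higher and 0 lower, where 13.6% and 17.3% of all tested probe sets were, 30.9% in all. The median difference of the members was 0.36, beside -0.05 over all tested probe sets. In 6 members every CBS-KO array lay above every WT array, and in none below, while 15.0% of all tested probe sets lay wholly above and 21.7% wholly below, 36.7% in all.

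**Figure D1:**
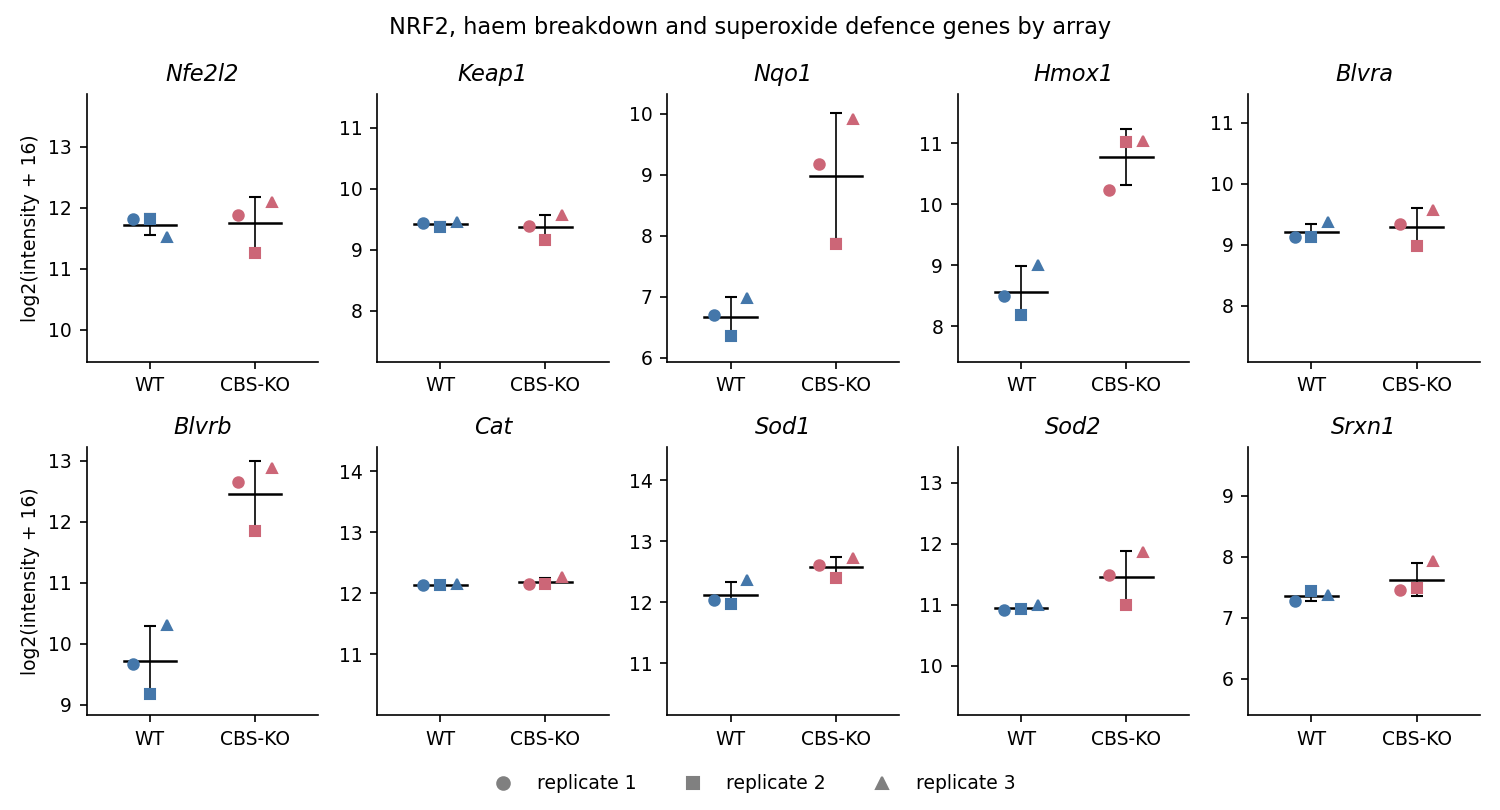
Each panel shows 1 member as log2(intensity + 16) on the vertical axis, which spans the same number of log2 units in every panel, with WT arrays in blue and CBS-KO arrays in red. Symbols mark the replicate number, horizontal lines the group mean and bars 1 SD (n = 3). Nqo1, Hmox1 and Blvrb separate clearly, from group means of 6.67, 8.56 and 9.72 to 8.98, 10.77 and 12.46, and Cat, Keap1 and Nfe2l2 sit at similar means in both groups.

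Nfe2l2 did not pass the test. Its log2 values were 11.82, 11.82 and 11.52 in the WT arrays and 11.89, 11.25 and 12.09 in the CBS-KO arrays. The CBS-KO arrays spread on both sides of the WT arrays, with CBS-KO 2 below and CBS-KO 1 and 3 above all of them. The mean difference was 0.02 (SE 0.22, 95% confidence interval -0.50 to 0.55, limma adjusted p = 0.961), so a change of up to about 1.46-fold upward or to 0.71 of the WT level lies within the interval. Its SD was 0.43 among CBS-KO and 0.17 among WT arrays.

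Keap1, which encodes the adaptor that marks NRF2 for degradation, did not pass either. It had values of 9.44, 9.38 and 9.45 in the WT arrays and 9.40, 9.16 and 9.57 in the CBS-KO arrays. The groups overlapped and the difference was -0.05 (SE 0.14, interval -0.38 to 0.28, limma adjusted p = 0.851). Its sign turned to positive with sex as a model term (0.14), where the estimate rests on CBS-KO 3, and without CBS-KO 2 (0.058). The difference of Nfe2l2 turned negative after quantile normalization (-0.0083). It was also negative without WT 3 (-0.08), CBS-KO 1 (-0.05) or CBS-KO 3 (-0.15). Neither gene was called under any of these settings.

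Nqo1 encodes NAD(P)H quinone dehydrogenase 1, which reduces quinones fully and so avoids semiquinone radicals. It was 6.70, 6.35 and 6.97 in the WT arrays and 9.17, 7.87 and 9.91 in the CBS-KO arrays. All CBS-KO arrays lay above all WT arrays, by 0.89 at the narrowest, and CBS-KO 2 was well below the other CBS-KO arrays. The difference was 2.31 (SE 0.49, interval 1.14 to 3.48, limma adjusted p = 0.0379). The WT mean lay below the filter level of 6.99, where the array background is unknown, and the size of the difference moved from 2.49 with an offset of 1 to 1.90 with an offset of 64. Nqo1 was no longer called when WT 1 (adjusted p = 0.145), WT 2 (0.151), WT 3 (0.0865) or CBS-KO 1 (0.131) was left out, nor with no filter (0.0668), within a range of 0.00279 to 0.151 over the settings that tested it. It lay below the filter at the 60th percentile and was not tested there.

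Srxn1 encodes sulfiredoxin, which repairs over-oxidised peroxiredoxins. It had values of 7.27, 7.43 and 7.37 in the WT arrays and 7.45, 7.48 and 7.93 in the CBS-KO arrays. CBS-KO 1 and 2 lay just above the WT arrays, by 0.02 at the narrowest, and CBS-KO 3 stood apart from both. The difference of 0.26 (SE 0.15, interval -0.10 to 0.63, limma adjusted p = 0.289) was not called, and it was 0.11 without CBS-KO 3. With sex as a model term it was 0.57 (adjusted p = 0.0355), where the estimate rests on CBS-KO 3, within a range of 0.03 to 0.616 over the settings that tested it, which the filter at the 60th percentile did not.

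Hmox1, the inducible haem oxygenase, was 8.50, 8.19 and 9.01 in the WT arrays and 10.24, 11.02 and 11.04 in the CBS-KO arrays. The groups were 1.23 apart at the narrowest, and CBS-KO 1 was the lowest of its group. The difference was 2.21 (SE 0.29, interval 1.51 to 2.91, limma adjusted p = 0.0138). Hmox1 lost its call without WT 1 (0.082) or WT 2 (0.073) and kept it without any other single array (range over all settings 0.00855 to 0.082). The second haem oxygenase gene, the constitutive Hmox2, had a difference of 0.01 (SE 0.09, adjusted p = 0.945).

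Blvrb encodes biliverdin reductase B, also known as flavin reductase, an enzyme abundant in red cells. It was 9.67, 9.18 and 10.30 in the WT arrays and 12.66, 11.85 and 12.88 in the CBS-KO arrays. It had the widest gap between the groups of any member, 1.55 at the narrowest. The difference was 2.74 (SE 0.36, interval 1.89 to 3.59, limma adjusted p = 0.0132), larger in size than that of 99.5% of all tested probe sets. The call was lost when WT 1 was left out (adjusted p = 0.0763), and likewise for WT 2 (0.0626) and for CBS-KO 1 (0.0645), within a range of 0.00317 to 0.0763 over all settings.

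Blvra encodes biliverdin reductase A, the main reductase of the adult bilirubin pathway. Its values were 9.13, 9.12 and 9.36 in the WT arrays and 9.33, 8.98 and 9.57 in the CBS-KO arrays. The groups overlapped, and the difference of 0.09 (SE 0.18, interval -0.34 to 0.52, limma adjusted p = 0.783) was not called. It turned to -0.049 without CBS-KO 3. The intervals of Blvra and Blvrb did not overlap, the upper bound of Blvra being 0.52 and the lower bound of Blvrb 1.89, and the difference between the genes was not tested.

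The superoxide dismutases had smaller positive differences, which were not called. Sod1, the cytosolic copper and zinc enzyme, was 12.03, 11.97 and 12.37 in the WT arrays and 12.62, 12.40 and 12.73 in the CBS-KO arrays. The groups nearly touched, with CBS-KO 2 above WT 3 by 0.04, and the difference was 0.46 (SE 0.14, interval 0.14 to 0.79, limma adjusted p = 0.0747). Sod2, the manganese enzyme of mitochondria, was 10.92, 10.93 and 10.99 in the WT arrays and 11.49, 10.99 and 11.87 in the CBS-KO arrays. CBS-KO 2 exceeded the highest WT array by only 0.0015, and the other CBS-KO arrays lay further up. The difference was 0.51 (SE 0.21, interval 0.002 to 1.01, limma adjusted p = 0.161).

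Both dismutases passed without CBS-KO 2, Sod1 at an adjusted p of 0.0292 and Sod2 at 0.0107. Other genes passed more often there too: of the pathway lists given below, 33 genes were called higher, against 17 in the main fit. The adjusted p of Sod1 lay between 0.0292 and 0.234 across the settings run, and that of Sod2 between 0.00831 and 0.344. With sex as a model term Sod2 passed (0.92, adjusted p = 0.0256) and Sod1 did not (0.61, 0.0569).

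Cat, which encodes catalase, had the smallest SD of the 10 members in both groups. Its values were 12.14, 12.14 and 12.15 in the WT arrays and 12.15, 12.15 and 12.27 in the CBS-KO arrays. The WT arrays differed by 0.01 at most, and CBS-KO 3 was the highest of the 6. The difference of 0.05 (SE 0.07) had the narrowest interval of the 10 members, -0.13 to 0.22, which leaves room for at most 1.16-fold upward (limma adjusted p = 0.718). Cat was called under none of the alternative settings run.

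**Figure D2:**
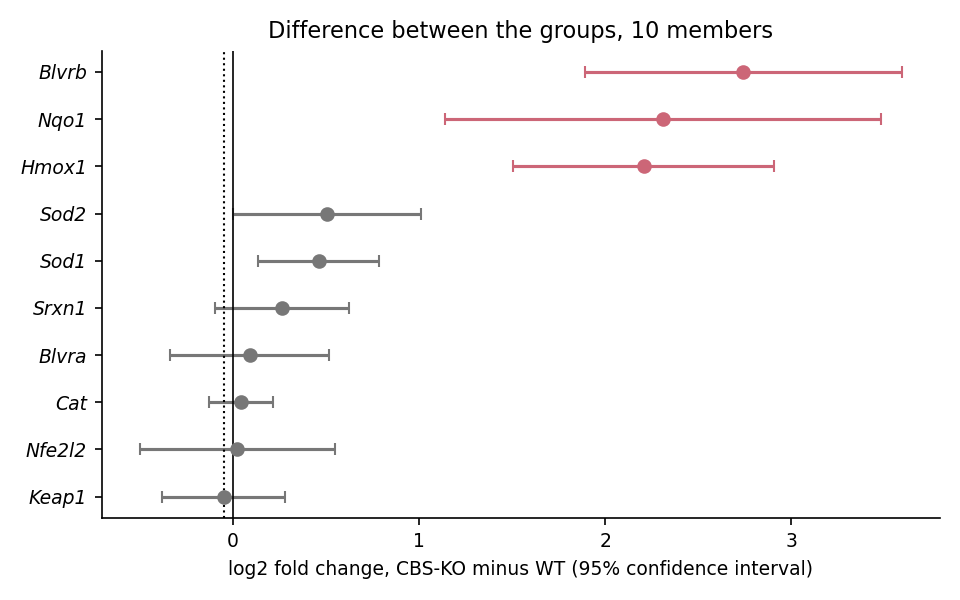
Points give the log2 fold change (CBS-KO minus WT) of each member on the horizontal axis with its 95% confidence interval from limma, members called higher in red and the others in grey. The solid line is at 0 and the dotted line at the median of all tested probe sets, -0.05. The intervals of Blvrb (1.89 to 3.59), Hmox1 (1.51 to 2.91) and Nqo1 (1.14 to 3.48) lie apart from those of the other 7 members, whose upper bounds reach 1.01 at most.

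The CBS-KO arrays did not share 1 level of these genes. CBS-KO 3 was the highest array of its group for all 10 members, and CBS-KO 2 the lowest for 7 of them. CBS-KO 3 was also the only array of its group without Y-linked signal. The share of all probe sets with CBS-KO 3 highest, whichever array was lowest, was not counted. CBS-KO 3 highest and CBS-KO 2 lowest held together for 7 members, beside 33.3% of all tested probe sets. The exceptions were Hmox1, Cat and Srxn1, for which CBS-KO 1 was lowest. The SD was larger among CBS-KO than among WT arrays for 8 members, with a median of 0.37 against 0.15, where the medians over all tested probe sets were 0.21 and 0.11.

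Markers of some cell types other than CD4+ T cells were also higher in CBS-KO arrays. Over all tested genes at 1 probe set per gene, 6.62% were called higher and 4.45% lower. All 11 tested erythroid genes of 14 listed were higher, and their mean exceeded the WT mean by 3.36, 2.42 and 3.67 in the CBS-KO arrays. Measured the same way, Blvrb exceeded its WT mean by 2.94, 2.13 and 3.16 and Nqo1 by 2.49, 1.19 and 3.24. Both genes were lowest in CBS-KO 2 and highest in CBS-KO 3 among the CBS-KO arrays, as the erythroid mean was, and among WT arrays all were lowest in WT 2 and highest in WT 3. That WT order held for 6 of the 10 members and for 22.0% of all tested probe sets. The summed intensity of the erythroid list ran from 6014 to 11940 in WT and from 31667 to 63364 in CBS-KO arrays.

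Hmox1 exceeded its WT mean by 1.68, 2.46 and 2.48 in the CBS-KO arrays, an order in which CBS-KO 1 is lowest. The monocyte and macrophage mean lay 1.86, 2.42 and 1.92 above WT there, highest in CBS-KO 2 and with CBS-KO 1 and 3 close together. Among WT arrays both were highest in WT 3, but Hmox1 was lowest in WT 2 (-0.38), as the erythroid mean was (-0.47), and the monocyte and macrophage mean was lowest in WT 1 (-0.29). Of 14 tested genes of that list 12 were higher, with summed intensities of 4646 to 8464 in WT and 22322 to 30615 in CBS-KO arrays. The neutrophil list (13 of 14 higher) stood 3.56, 3.56 and 3.14 above WT, with sums of 1627 to 3369 and 30242 to 38537. The CD4 T cell list moved the other way, with 4 of 10 lower, a mean relative to WT of -0.69, -0.37 and -1.08 and sums of 61481 to 66565 in WT and 32366 to 51244 in CBS-KO arrays.

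Of the remaining lists, 3 of 8 dendritic cell genes were higher, 1 of 7 B cell genes was higher, 2 of 7 NK cell genes were higher and 1 lower, and 1 of 5 platelet genes moved each way. Beside these small counts, 6.62% of all tested genes were called higher and 4.45% lower. An intensity has no true zero, and the WT mean lay below the filter level for 1 of the 11 erythroid genes, 5 of the 14 neutrophil genes and 1 of the 14 monocyte and macrophage genes. The same held for 1 of the 7 NK cell genes and 1 of the 8 dendritic cell genes. The part of these cell types in the differences of Blvrb, Nqo1 and Hmox1 was not tested.

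**Figure D3:**
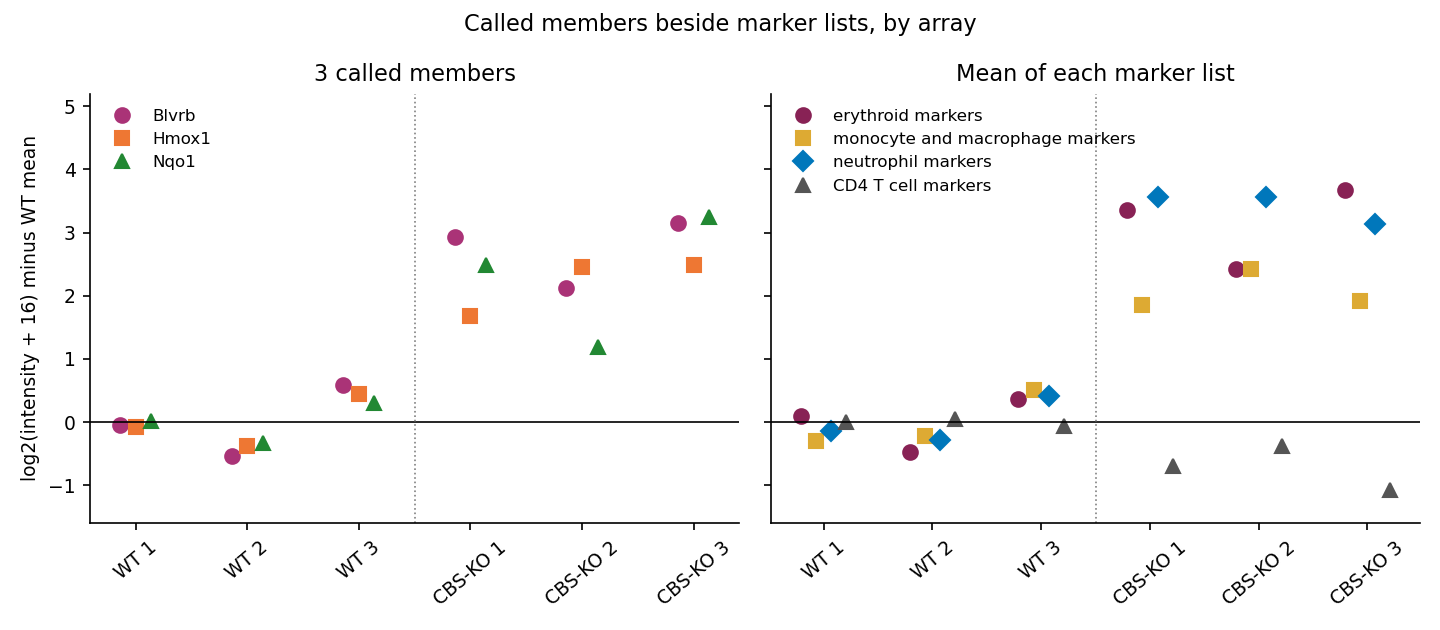
The left panel shows Blvrb, Hmox1 and Nqo1 and the right panel the mean of each marker list (erythroid, monocyte and macrophage, neutrophil, CD4 T cell), each as log2(intensity + 16) minus its own WT mean, by array. Blvrb, Nqo1 and the erythroid mean dip in CBS-KO 2. Over all tested probe sets, 33.3% had CBS-KO 3 highest and CBS-KO 2 lowest of the CBS-KO arrays. Hmox1 and the monocyte and macrophage mean are lowest in CBS-KO 1 of that group, at 1.68 and 1.86, but lie at 2.48 and 1.92 in CBS-KO 3. The neutrophil and CD4 T cell means do not dip in CBS-KO 2 either and are lowest in CBS-KO 3, at 3.14 and -1.08.

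The genes whose levels ran most like each called member over the 6 arrays differed between the members. For Blvrb they were Nucb1, Alad, the haem synthesis enzyme that makes porphobilinogen, and Stard10 (Pearson's r of 0.999 for each). For Hmox1 they were Slc40a1, the iron exporter ferroportin, at 0.995, Mrc1, the macrophage mannose receptor, at 0.995, and Dram1, a lysosomal membrane protein of autophagy, at 0.992. For Nqo1 they were Mcm10, a DNA replication factor, Arhgap19, and Pfas, an enzyme of purine synthesis, with r of 0.999, 0.999 and 0.999. All 9 genes were themselves called higher, so these coefficients describe 6 points that fall into the study's groups and carry no test.

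The promoters of the members were searched because 3 members were called higher in CBS-KO arrays and NRF2 binds a known motif. RefSeq promoter sequences on GRCm38.p6, from 250 bases before to 50 after a start site, were given for 9 members, Blvrb having 2 start sites, and not for Hmox1. The antioxidant response element was searched as TGACNNNGC and in a looser form as TGANNNNGC, on both strands, every strict match being a loose match too. Those of both Blvrb starts and of Nqo1 are printed because these genes rose, and that of Srxn1 because it held the most matches while the gene was not called. Capitals mark matches to the looser form in either direction.
Blvrb, first start, chr7:27447728-27448027, plus strand: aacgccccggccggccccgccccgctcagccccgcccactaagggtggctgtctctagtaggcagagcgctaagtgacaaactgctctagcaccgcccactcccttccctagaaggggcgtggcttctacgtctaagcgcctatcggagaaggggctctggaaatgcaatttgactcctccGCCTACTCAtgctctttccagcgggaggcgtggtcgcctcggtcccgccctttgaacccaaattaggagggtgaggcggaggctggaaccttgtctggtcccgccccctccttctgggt
Blvrb, second start, chr7:27452168-27452467, plus strand: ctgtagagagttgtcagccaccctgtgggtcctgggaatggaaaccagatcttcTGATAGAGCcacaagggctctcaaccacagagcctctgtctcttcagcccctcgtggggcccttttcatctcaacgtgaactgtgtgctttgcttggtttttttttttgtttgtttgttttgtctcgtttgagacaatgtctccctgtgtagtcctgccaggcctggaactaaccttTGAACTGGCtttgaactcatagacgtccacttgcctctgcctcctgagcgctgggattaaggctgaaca
Nqo1, chr8:107403156-107403455, minus strand: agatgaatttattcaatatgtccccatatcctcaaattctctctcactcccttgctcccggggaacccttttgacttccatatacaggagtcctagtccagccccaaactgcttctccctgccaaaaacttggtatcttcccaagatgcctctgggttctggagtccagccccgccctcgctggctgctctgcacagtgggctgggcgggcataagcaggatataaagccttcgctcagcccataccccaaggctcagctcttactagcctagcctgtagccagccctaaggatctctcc
Srxn1, chr2:152105274-152105573, plus strand: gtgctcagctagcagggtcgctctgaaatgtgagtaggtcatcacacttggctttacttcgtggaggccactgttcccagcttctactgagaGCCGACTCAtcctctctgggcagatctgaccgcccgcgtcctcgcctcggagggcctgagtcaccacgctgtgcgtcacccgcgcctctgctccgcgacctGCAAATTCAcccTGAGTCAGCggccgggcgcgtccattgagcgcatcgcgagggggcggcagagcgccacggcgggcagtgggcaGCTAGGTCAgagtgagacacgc
The Srxn1 window held 4 loose matches, of which GCTAGGTCA, on the reverse strand, also met the strict form. The Blvrb windows held 1 and 2 loose matches and no strict one, and the Nqo1 window held none of either. Strict matches stood in the windows of Nfe2l2, Blvra, Srxn1 and Sod1, 4 of 9 members, where 12.4% of all 32851 promoter windows had one. Loose matches stood in 6 of 9 members against 41.3% of all windows. AGATAA, a letter run that transcription factors of the GATA family recognise, stood in the Keap1 window alone among members (11.2% of all windows). A fixed letter run, the core of the MAF recognition element with its flank on 1 side, stood in no member window (0.155% of all windows). The core without this flank was not searched, so its absence is not shown. Of the called members, Blvrb and Nqo1 are in the table, and 0 of these 2 had a strict match. A match of letters is a description and shows no binding, and sequence outside these windows was not searched.

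Other genes of these pathways were read from 5 lists, which were chosen with earlier results of these data known. Over the lists 17 of 66 tested genes were called higher and 2 lower, 25.8% and 3.03%, beside 6.62% and 4.45% of all 12776 tested genes at 1 probe set per gene. Leaving out WT 1 or WT 2 left 2 genes higher, WT 3 9, and CBS-KO 1 4, whereas 33 were higher without CBS-KO 2. With no filter, Gclc, Gclm, Nfe2, Prdx2, Msrb1 and Sesn1 were not called (adjusted p of 0.0561 to 0.0678).

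Genes of haem, iron and haemoglobin handling rose in part. Of 10 tested genes of the haem and bilirubin list, 6 were higher and 0 lower in limma (median 1.57). At an unadjusted p under 0.05 in limma, 7 were higher and 0 lower, beside 13.6% and 17.3% of all tested probe sets. Hp, haptoglobin, which binds free haemoglobin and is also stored in neutrophil granules, rose from 7.12 ± 0.25 (SD, n = 3) to 9.93 ± 0.21 (2.81, SE 0.18, limma adjusted p = 0.00186). Slc40a1, ferroportin, rose by 2.76 (SE 0.30, adjusted p = 0.00879), Hebp1, a haem-binding protein, by 2.48 (SE 0.37, 0.0173), and Slc48a1, which moves haem out of the lysosome, by 0.90 (SE 0.13, 0.0149). The other called genes were Spic, the transcription factor of red pulp macrophages (2.15), and Lrp1, a receptor for haem-haemopexin (1.71), both named after their values were seen. The WT mean of Spic, 6.93, lay below the filter level of 6.99, where the array background is unknown. Its difference was 2.30 with an offset of 1 and 1.79 with an offset of 64, and the stricter alternative filter left Spic untested. Of these 6, Hp alone passed under every alternative, and without WT 1 or WT 2 only 1 gene of the list passed.

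Other NRF2 targets rose in part. Of 21 tested genes 5 were higher and 0 lower in limma (median 0.42). At an unadjusted p under 0.05 in limma, 11 were higher and 3 lower, beside 13.6% and 17.3% of all tested probe sets. Gsr, glutathione reductase, rose from 9.93 ± 0.12 (SD, n = 3) to 11.44 ± 0.21 (1.51, SE 0.14, limma adjusted p = 0.0058) and passed under every alternative setting run. The glutathione transferase genes Gstm1 and Gstp1 rose by 2.14 (SE 0.38) and 0.46 (SE 0.09), and Gclc, the catalytic subunit of the enzyme that starts glutathione synthesis, by 0.88 (SE 0.17). Its partner subunit Gclm rose by 1.48 (SE 0.29, adjusted p = 0.0325) and was named after its values were seen. The count was 1 without WT 1, WT 2, WT 3 or CBS-KO 1 and 12 without CBS-KO 2. The other 16 targets were not called, among them Txnrd1, thioredoxin reductase (0.05, adjusted p = 0.914), and the ferritin chains Fth1 (0.34, 0.0549) and Ftl1 (0.997, 0.0602).

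Regulators of NRF2 were mostly not called. Of 15 tested genes 2 were higher and 0 lower in limma (median -0.02). At an unadjusted p under 0.05 in limma, 2 were higher and 3 lower, near the 13.6% and 17.3% of all tested probe sets. Mafg, a small MAF partner of NRF2, rose by 0.68 (SE 0.12, adjusted p = 0.0259), and Nfe2, the related factor of red cell precursors and megakaryocytes, by 1.73 (SE 0.34, 0.0329). Bach2, a repressor that competes for the same sites and is highly expressed in lymphocytes, had 10.84, 11.05 and 10.99 in the WT arrays and 9.68, 10.51 and 9.49 in the CBS-KO arrays without being called (-1.07, SE 0.26, adjusted p = 0.0508, range over all settings 0.00204 to 0.177). Cul3, the ubiquitin ligase scaffold that works with KEAP1, differed by -0.25 (SE 0.07, 0.0672). No regulator passed as higher without WT 1, WT 2, WT 3 or CBS-KO 1.

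Among 15 other genes of superoxide and peroxide defence, 3 were higher and 2 lower (median 0.58). Gpx1, the cytosolic glutathione peroxidase, rose from 11.71 ± 0.14 (SD, n = 3) to 12.74 ± 0.17 (1.02, SE 0.12, limma adjusted p = 0.00937). Prdx2, a peroxiredoxin abundant in red cells, rose by 1.21 (SE 0.25, 0.0357), and its second probe set had 1.09 without being called (0.0925). Msrb1, a methionine sulfoxide reductase, rose by 0.97 (SE 0.21, 0.0402), with an adjusted p of 0.0175 to 0.159 over all settings. With sex as a model term, where the estimate rests on CBS-KO 3, its difference was 0.64 and was not called. Of the sestrins, stress-induced regulators of growth signalling, Sesn3 (-1.09, SE 0.20, 0.0267) and Sesn1 (-0.65, SE 0.14, 0.0406) fell, whereas Sesn2 had a positive difference without being called (0.69, SE 0.24, 0.106). Sesn1 and Sesn2 were named after their values were seen. Without WT 1, WT 2 or CBS-KO 1 none of these 15 was called, and without WT 3 only 1 was.

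Of 5 subunits of the phagocyte oxidase, the enzyme that makes superoxide, Ncf1 was higher (1.27, SE 0.20, limma adjusted p = 0.0195). Cybb, its catalytic chain, had 1.08 (SE 0.29, 0.0602), and Rac2 (-0.25, 0.144) and Cyba (-0.26, 0.288) had negative differences. Ncf1 lost its call without WT 1, WT 2 or CBS-KO 1.

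**Figure D4:**
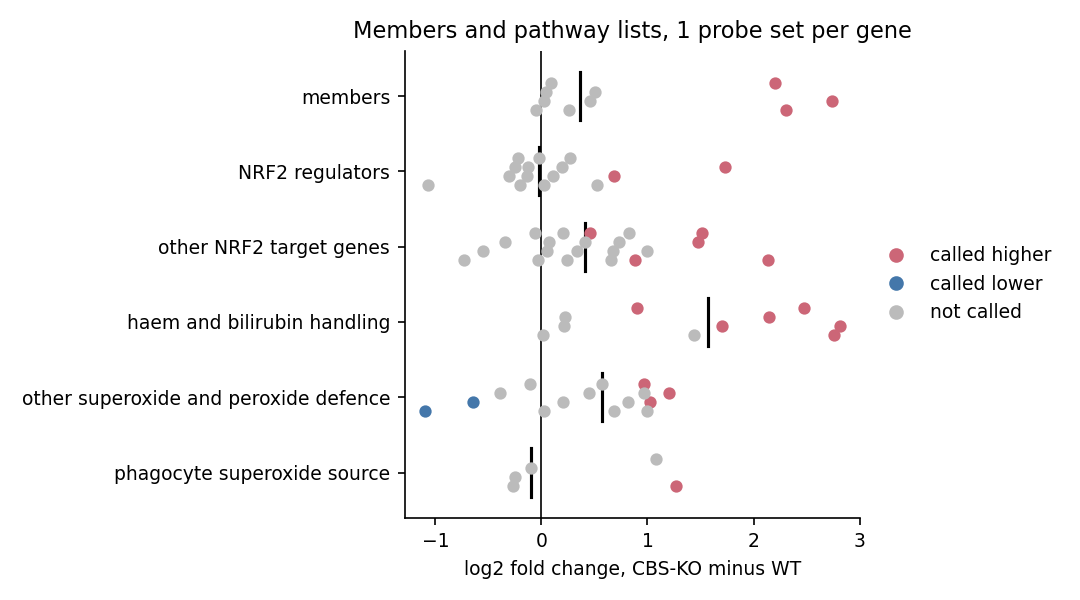
Each point is 1 tested gene, by its log2 fold change (CBS-KO minus WT) on the horizontal axis, for the members and the 5 pathway lists, with called genes in red (higher) or blue (lower) and black bars at the median of each list. The medians run from -0.10 for the phagocyte oxidase to 1.57 for haem and bilirubin handling, and the called members lie at 2.21 to 2.74.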

How the data were processed

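Expression was measured on 6 Affymetrix arrays. Per the labels' protocols, biotinylated cRNA was made from 6 ug of total RNA. The authors deposited 1 intensity per probe set and array, whose scale was read as linear from the values; background correction, normalization, probe set summary and centring are not stated there, nor are sorting and purity of the cells. Of 34760 probe sets, 21640 named 1 gene, 1321 several and 11799 none in the platform annotation, and the 21553 Entrez identifiers found in RefSeq (GRCm38.p6) changed 0 symbols.

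Groups were compared in limma 3.58.1 (R 4.3.3; lmFit, then eBayes allowing for a mean-variance trend; two-sided) on log2(intensity + 16) of the 20856 tested probe sets, with p adjusted over all of them. The number of arrays, 3 per group, limits precision. The members, lists and tests were chosen with earlier results of these data known. Named were all members, up to 4 genes of smallest p per pathway list, and for the 3 members of smallest p the 3 genes of highest Pearson's r over the 6 arrays. Other pathway genes given, such as Hmox2, Txnrd1, Fth1 and Ftl1, were named outside this rule. For lists, each gene was represented by its brightest tested probe set. The fit was tested on simulated data with known changes. Alternatives were quantile normalization, a common median, offsets of 1 and 64, no filter or the 60th percentile, eBayes without trend, sex as a term, the replicate number as a block, probe sets averaged per gene and each array left out. Plots used matplotlib 3.10.9 (Python 3.11.15).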

Additional observations from a re-analysis of the deposited data

How the results depend on the processing

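The count of 3 members called higher was 2 with no filter and with the filter at the 60th percentile, which left Nqo1 and Srxn1 untested, and 3 under the settings that changed normalization, offset, variance model or probe set summary, and no member was called lower under any setting. It was 5 with sex as a model term, and also 5 in the arrays without Y-linked signal, a setting added after seeing the data, in which as in the sex term the estimate rests on CBS-KO 3. Leaving out 1 array gave 0 to 5 members higher, 72 to 6433 called probe sets in the whole table against 1995, and 2 to 33 genes of the pathway lists higher and 0 to 7 lower against 17 and 2. The whole table gave 1126 calls with no filter, which tests more probe sets, 4976 with sex as a term and 6658 in the arrays without Y-linked signal. In these 2 sex settings the pathway lists had 28 and 31 genes higher and 5 and 6 lower, and the lower count was 1 with no filter and 5 with the mean of probe sets per gene. Differences near 0 changed sign: Nfe2l2 was -0.0083 after quantile normalization and -0.15 to 0.27 with 1 array left out, Keap1 was 0.14 in both sex settings and -0.15 to 0.058 with 1 array left out, and Blvra was -0.049 to 0.25 with 1 array left out. The cause of these shifts was not tested beyond the number of probe sets or arrays named. Same-numbered arrays of the groups had correlated deviations from the group means of 0.06, 0.16 and 0.11, not all above 0.1, so the numbers were not taken as pairs, although each array correlated best with its own number. With the replicate number as a block, 2093 probe sets and 4 members were called, Sod1 being added (adjusted p = 0.0436, range over all settings 0.0292 to 0.234), and 16 pathway genes were higher and 3 lower. Of the pathway genes named, Gstp1 (adjusted p = 0.0595) and Msrb1 (0.0617) were not called with the block and Bach2 was (0.0436). Probe sets near or below the filter level of 6.99, such as Nqo1 in WT arrays, have a fold change that depends on the unknown background.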

Other observations

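A total of 11 genes of the pathway lists, with 12 probe sets, lay below the filter on low values and were not tested. In 4 of these probe sets every CBS-KO array lay above every WT array, in 1 below, and in 7 the groups overlapped, where 3.55% of all 13904 probe sets below the filter lay wholly above and 11.0% wholly below. The 3 genes given here were named after their values were seen. On the log2(intensity + 16) scale, in the order of replicates 1, 2 and 3, Cd163, the macrophage receptor that takes up haemoglobin bound to haptoglobin, measured 6.28, 6.46 and 6.47 in the WT arrays and 6.77, 7.43 and 7.21 in the CBS-KO arrays. Slc7a11, the cystine importer and an NRF2 target, had 5.62, 5.60 and 5.68 in the WT arrays and 5.83, 5.86 and 6.08 in the CBS-KO arrays. In both genes the CBS-KO arrays lay above the WT arrays. Akr1b8, an aldo-keto reductase gene and NRF2 target, went the other way, with 5.80, 5.79 and 5.92 in the WT arrays and 5.66, 5.77 and 5.71 in the CBS-KO arrays. All of these are low levels, and the background of these arrays is unknown.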
